A study of Mus musculus with 12 samples.

Results

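The antioxidant, glutathione and Nrf2 target genes of the mouse ileum were examined as a list of 36 genes. Members were the rows of the deposited count table whose Ensembl identifier maps to a listed symbol. All 36 were found among the 54838 genes of the table, and none was lost to the low-count filter that left 15938 genes for testing.

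The data were RNA sequencing libraries of the ileum of 12 C57BL/6J mice, 3 in each of 4 groups. For 7 days the mice drank normal water or water with 25 mM ZnSO4. They were then injected with PBS, or with 200 µg of dexamethasone (Dex, a synthetic glucocorticoid) in PBS, and the ileum was taken 2 h later. The groups are named water + PBS, ZnSO4 + PBS, water + Dex and ZnSO4 + Dex. No group carried a mutation or transgene. The mice were females bought from a breeder, and their age is given in the methods only as a range of weeks for all mice of the study. The ileum was washed and lysed whole, so each library is a mixture of epithelium, muscle, blood and immune cells, and fewer cells of a type cannot be told apart from less RNA per cell.

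Nrf2, encoded by Nfe2l2, is a transcription factor that Keap1 holds in the cytoplasm and delivers for degradation until oxidants or electrophiles modify Keap1. It then enters the nucleus, pairs with small Maf proteins and binds antioxidant response elements before genes for glutathione synthesis, NADPH supply, peroxide removal and conjugation of electrophiles. In the small intestine these enzymes stand between absorbed xenobiotics and lipid peroxides on one side and the epithelium on the other, and the peroxidase Gpx2 is known as the gastrointestinal glutathione peroxidase. Zinc acts on transcription chiefly through Mtf1, which binds metal response elements, and Dex through the glucocorticoid receptor.

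Between 10760132 and 11827487 reads per library were counted on genes, with a median of 11388606. The members held 0.602 to 0.736% of them. Levels are given as CPM, the read count relative to the size of the library after TMM scaling, which corrects for its composition. Differences are given as LFC (log2 fold change) and were tested with edgeR's quasi-likelihood test. The SE of an LFC was computed as its size over the square root of the F statistic of that test. A gene is called where the Benjamini-Hochberg adjusted p over all 15938 genes is under 0.05, and only called genes are said to rise or fall. The smallest p of an exact permutation test between groups of 3 is 0.1, and every p given here is therefore from the model across genes. Gene positions are those of the GENCODE annotation of GRCm38. Both treatments left their known marks: Mt1, a metallothionein gene switched on by zinc, rose 27.7-fold with ZnSO4 in PBS mice (adjusted p = 9.1e-06), and Fkbp5, a glucocorticoid receptor target, rose 10.1-fold with Dex in water mice (adjusted p = 2.1e-07). The tissue label was checked by its markers. The 4 genes typical of distal enterocytes summed to 5348 to 10307 CPM in a library and the 5 of proximal enterocytes to 132 to 683 CPM.

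The DNA before the members' start sites was read from RefSeq (GRCm38.p6), over the 250 bases upstream of each start. It was matched for 30 of the 36 members, with 39 promoters between them. Not matched were Gclc, Gsr, Gsta4, Prdx6, Hmox1 and Sod3. The letters TGACNNNGC of the antioxidant response element, searched on both strands, were in 8 of 39 promoters of members (20.5%) and in 10.2% of all 32851 promoters of the same length. The letters of the metal response element core, TGCACNC or TGCGCNC, were in 6 of 39 (15.4%) and in 21.4% of all promoters. The full glucocorticoid response element, a palindrome around a short spacer, was matched in none of the 39 and in 0.387% of all. AP-1 letters, TGANTCA, which can overlap those of the antioxidant response element, were in 5 of 39 (12.8%) and in 6.75% of all.

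Promoters of 5 called members are shown because they differ in which of these letters they hold. They were chosen after the calls were known. Capitals mark matches to the antioxidant, metal or glucocorticoid response element on either strand. Gclm (chr3:122245307-122245556, plus strand) holds an antioxidant response element match 134 bases before its start, which overlaps a metal response element match at 138, and a further metal response element match at 72. Gstm1 (chr3:108017974-108018223, minus strand) holds a metal response element match at 74. Gpx2 (chr12:76795555-76795804, minus strand) holds none of the letters. Mgst1 (chr6:138140277-138140526, plus strand) and Nfe2l2 itself (chr2:75704664-75704913, minus strand) hold an antioxidant response element match at 56 and at 240. A match describes the letters only, and binding was not measured.
Gclm promoter: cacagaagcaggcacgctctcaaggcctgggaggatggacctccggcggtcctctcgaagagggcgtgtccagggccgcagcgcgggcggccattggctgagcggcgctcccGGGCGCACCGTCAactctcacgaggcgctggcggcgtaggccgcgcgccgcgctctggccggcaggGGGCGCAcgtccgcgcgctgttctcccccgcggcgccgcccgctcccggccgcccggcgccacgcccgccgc
Gstm1 promoter: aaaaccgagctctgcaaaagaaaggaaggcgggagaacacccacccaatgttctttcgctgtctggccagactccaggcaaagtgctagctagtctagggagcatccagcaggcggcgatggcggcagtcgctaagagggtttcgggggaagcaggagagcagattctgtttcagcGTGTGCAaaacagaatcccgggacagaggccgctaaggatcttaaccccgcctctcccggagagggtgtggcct
Gpx2 promoter: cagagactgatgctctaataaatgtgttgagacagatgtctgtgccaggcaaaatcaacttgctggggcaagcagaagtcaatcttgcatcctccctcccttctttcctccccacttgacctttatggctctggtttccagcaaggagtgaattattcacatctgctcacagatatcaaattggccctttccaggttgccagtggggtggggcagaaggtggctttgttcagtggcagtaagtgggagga
Mgst1 promoter: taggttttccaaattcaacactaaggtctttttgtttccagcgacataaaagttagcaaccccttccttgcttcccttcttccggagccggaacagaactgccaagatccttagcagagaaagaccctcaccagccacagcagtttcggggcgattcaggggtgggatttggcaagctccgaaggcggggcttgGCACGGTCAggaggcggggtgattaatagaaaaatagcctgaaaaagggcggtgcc
Nfe2l2 promoter: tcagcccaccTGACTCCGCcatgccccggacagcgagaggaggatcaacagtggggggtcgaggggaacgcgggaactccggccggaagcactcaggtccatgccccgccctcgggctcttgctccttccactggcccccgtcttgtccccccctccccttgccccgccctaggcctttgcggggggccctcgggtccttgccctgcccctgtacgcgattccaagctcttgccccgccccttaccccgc

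Per length of exon, the most abundant member in water + PBS was Txn1, thioredoxin, at 620 CPM per kb. It was followed by the peroxiredoxin Prdx1 at 261, the pentose phosphate enzyme Taldo1 at 230 and Gpx2 at 190 CPM per kb. At the lower end stood Hmox1, which breaks down heme, at 2.7, the transferase Gsta3 at 1.84 and the cystine importer Slc7a11 at 0.655 CPM per kb. The order changed at a few places with treatment. Prdx6 went from 38.6 CPM per kb in water + PBS, the rank of 16, to 171 in water + Dex, and Gpx2 from 190 to 81.3 CPM per kb in ZnSO4 + PBS.

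**Figure D1:**
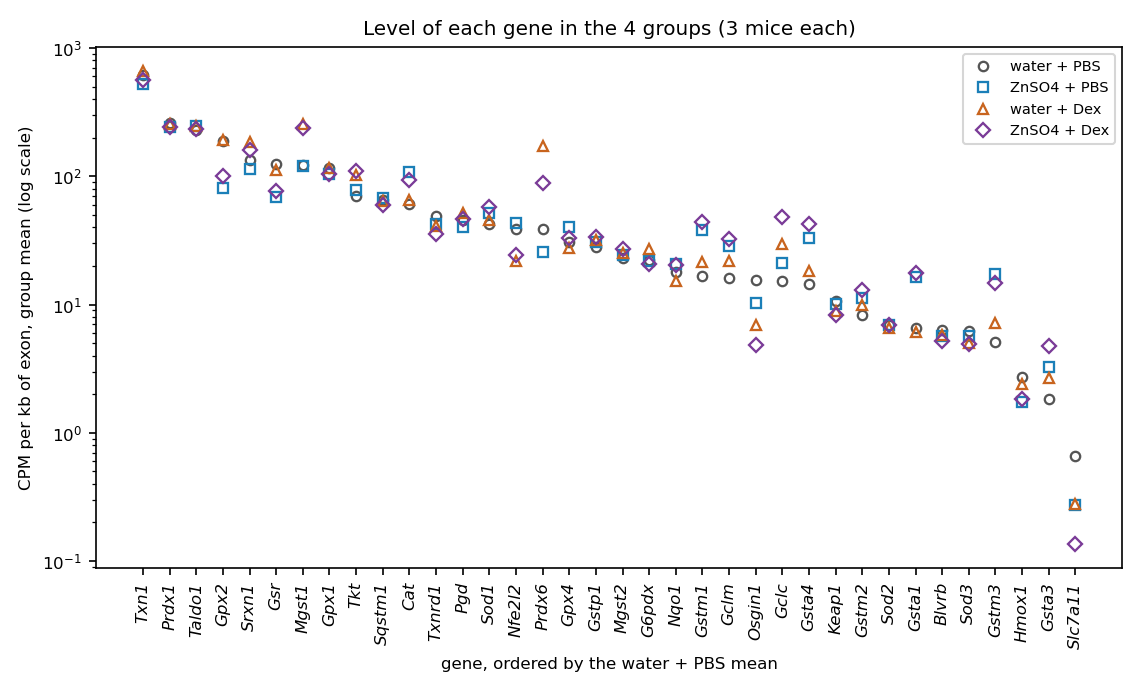
Group mean level of each of the 36 genes (y axis, CPM per kb of exon, log scale), ordered along the x axis by the water + PBS mean, with 1 symbol per group of 3 mice and no error bars. Levels run from 620 for Txn1 to 0.655 for Slc7a11 in water + PBS, and the 4 symbols span the widest range for Prdx6 (25.9 to 171) and Slc7a11 (0.136 to 0.655).

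With ZnSO4 in PBS mice 5 of the 36 members rose and 3 fell, where 2.11% of all tested genes rose and 2.54% fell. The members were chosen with earlier results of these data known, and the tested genes were not matched to them for read count. The risers were Gclm, Gpx4, Cat, Gsta4 and Gstm1, and the fallers Gsr, Gpx2 and Prdx6. The members' median LFC was 0.01, beside -0.01 over all tested genes, with 18 members above 0 and 18 below. The number of risers was 3 without water + PBS replicate 1, 2 without ZnSO4 + PBS replicate 1 and 3 without ZnSO4 + PBS replicate 3.

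With Dex in water mice 4 members rose (Gclc, Tkt, Prdx6, Mgst1) and 2 fell (Nfe2l2, Osgin1). Over all tested genes 5.41% rose and 4.51% fell. The median LFC was 0.09 for the members and -0.01 for all genes, with 21 members above 0 and 15 below. Leaving out any 1 library moved neither count of called members by over 1.5 times.

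ZnSO4 under Dex, that is ZnSO4 + Dex against water + Dex, raised 5 members (Gclc, Cat, Gsta1, Gsta4, Gstm1) and lowered 2 (Gpx2, Prdx6), beside 1.83% and 2.54% of all genes. Without water + Dex replicate 1, 2 or 3 the risers were 2, 1 and 2. Upper-quartile scaling gave 8 risers and 2 fallers. The median LFC was -0.04 for the members and 0.01 for all genes. Its sign turned without ZnSO4 + Dex replicate 1 (0.01) or replicate 2 (0.04).

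Dex in ZnSO4 mice, that is ZnSO4 + Dex against ZnSO4 + PBS, raised 4 members (Gclc, Tkt, Prdx6, Mgst1) and lowered 3 (Nfe2l2, Gpx4, Osgin1), beside 6.65% and 7.08% of all genes. The median was 0.08 for the members and 0.01 for all genes.

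With the study's further cut-off of 0.8 on the size of the LFC, 4 members rose and 2 fell with ZnSO4 in PBS mice, where 1.7% of all genes were past it in either direction. The same cut-off left 3 up and 2 down with Dex in water mice (4.42% of all genes), 3 up and 2 down with ZnSO4 under Dex (1.9%), and 3 up and 2 down with Dex in ZnSO4 mice (5.81%).

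**Figure D2:**
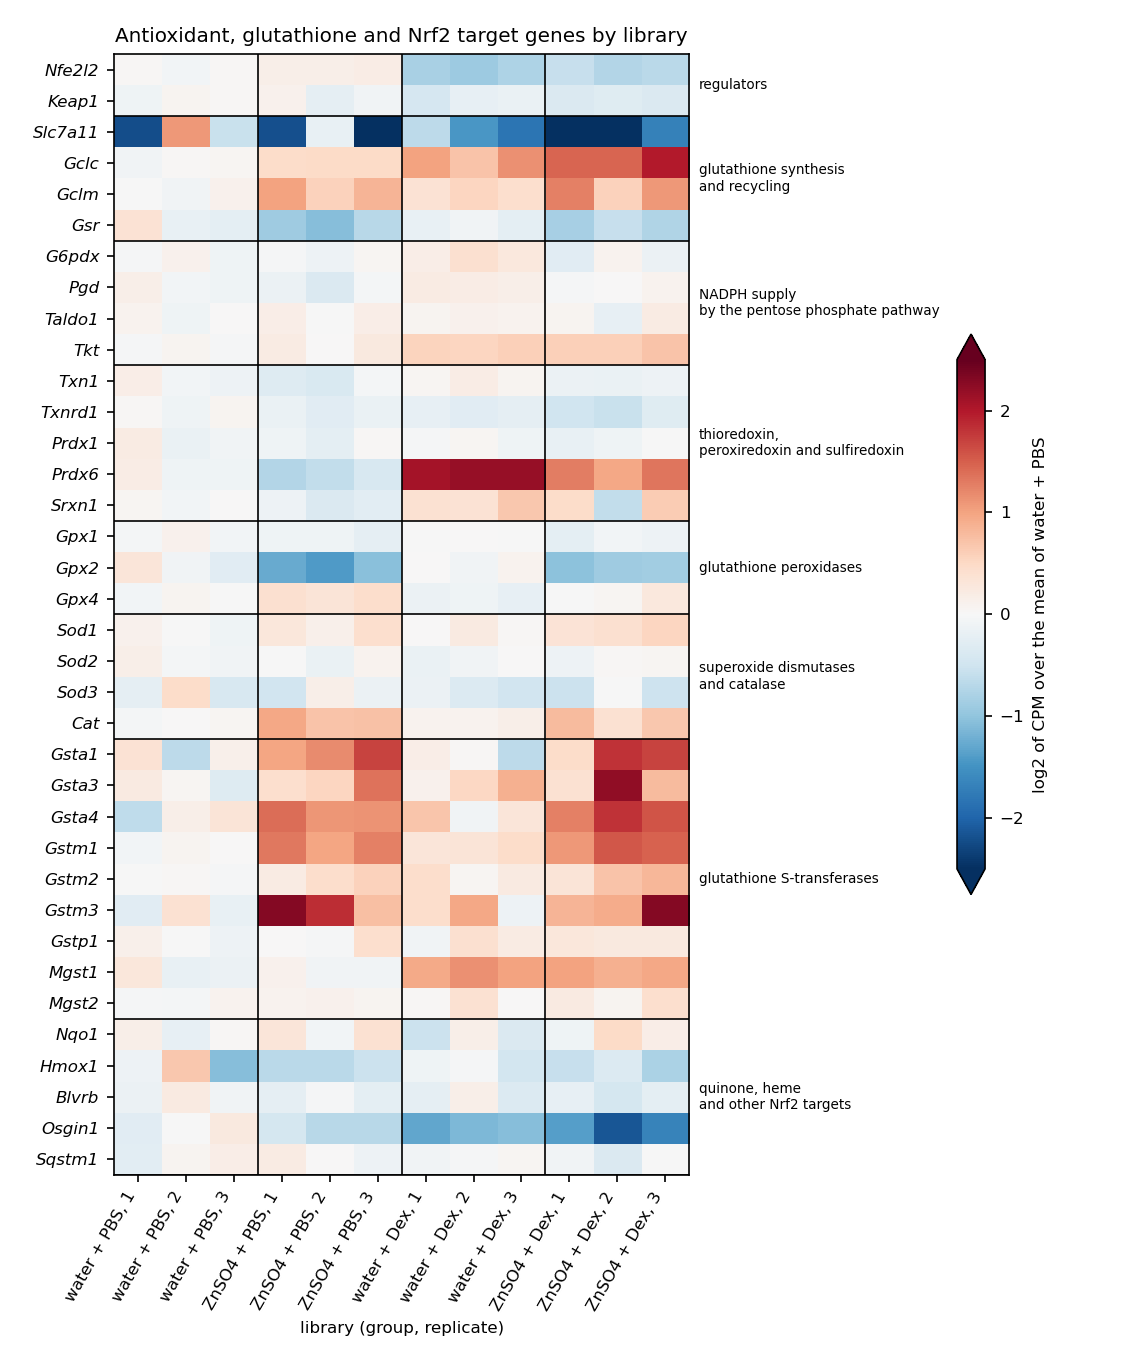
Heat map of the 36 genes (rows, ordered by role) in the 12 libraries (columns, by group), coloured by the log2 of each CPM over the mean of water + PBS. Prdx6 is raised in all 3 water + Dex libraries and less so in ZnSO4 + Dex, Gpx2 is low in all 6 ZnSO4 libraries, Nfe2l2 and Osgin1 are low in all 6 Dex libraries, and Slc7a11 varies between the mice of a group.

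The regulators were Nfe2l2 and Keap1. Nfe2l2 (ENSMUSG00000015839, chr2:75675513-75704641) measured 151, 141 and 150 CPM in water + PBS and 163, 163 and 167 CPM in ZnSO4 + PBS. In water + Dex it measured 83.7, 78.1 and 86.4 CPM and in ZnSO4 + Dex 98.2, 88.3 and 92.1 CPM. Every Dex mouse thus lay below every PBS mouse. Nfe2l2 fell with Dex in water mice (LFC -0.83, SE 0.07, 0.561-fold, adjusted p = 1.2e-05) and in ZnSO4 mice (LFC -0.82, SE 0.07, adjusted p = 1.2e-05). Both calls held in each alternative run. With ZnSO4 its LFC was 0.16 in PBS mice (adjusted p = 0.2) and 0.17 under Dex (adjusted p = 0.19) and it was not called. Keap1, the adaptor that marks Nrf2 for degradation, measured 37.3 to 53.2 CPM over the 12 libraries and was called in no comparison. Its LFC with Dex was -0.25 in water mice (adjusted p = 0.13) and -0.28 in ZnSO4 mice (adjusted p = 0.078).

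Glutathione synthesis begins with cystine uptake by Slc7a11 and is limited by glutamate-cysteine ligase, whose catalytic subunit is Gclc and whose modifier subunit is Gclm. Gclc (ENSMUSG00000032350, chr9:77754535-77794485) measured 53.8, 58.6 and 59.4 CPM in water + PBS and 79.1, 80 and 79.3 CPM in ZnSO4 + PBS. It measured 115, 94.2 and 127 CPM in water + Dex and 158, 157 and 226 CPM in ZnSO4 + Dex. The 4 groups did not overlap, and the order was water + PBS, ZnSO4 + PBS, water + Dex and ZnSO4 + Dex. Gclc rose with Dex in water mice (LFC 0.97, SE 0.14, 1.95-fold, adjusted p = 0.0012) and in ZnSO4 mice (LFC 1.18, SE 0.14, 2.27-fold, adjusted p = 0.00022). With ZnSO4 under Dex it rose by an LFC of 0.69 (SE 0.14, 1.61-fold, adjusted p = 0.018). That call was lost without water + Dex replicate 1 (adjusted p = 0.066) or replicate 2 (adjusted p = 0.078), and with only the 2 groups in the fit (adjusted p = 0.071). With ZnSO4 in PBS mice Gclc had an LFC of 0.47 (adjusted p = 0.084) and was not called.

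Gclm (ENSMUSG00000028124, chr3:122245557-122270732) measured 100, 94.7 and 109 CPM in water + PBS and 204, 151 and 183 CPM in ZnSO4 + PBS. In water + Dex it measured 130, 146 and 136 CPM and in ZnSO4 + Dex 241, 150 and 216 CPM. Both ZnSO4 groups lay above their water groups, in the Dex mice by a narrow margin. Gclm rose with ZnSO4 in PBS mice (LFC 0.82, SE 0.16, 1.77-fold, adjusted p = 0.015). The call was lost without water + PBS replicate 1 or 2 or without ZnSO4 + PBS replicate 1 or 3, with adjusted p between 0.054 and 0.062 and an LFC between 0.72 and 0.83. Under Dex its LFC with ZnSO4 was 0.56 (adjusted p = 0.072), and DESeq2 called it (adjusted p = 0.019). With Dex its LFC was 0.44 in water mice (adjusted p = 0.11) and 0.17 in ZnSO4 mice (adjusted p = 0.54). Of its exon bases 4.71% lie under exons of a gene on the opposite strand.

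Gsr, glutathione reductase, returns oxidised glutathione to its reduced form with NADPH. Gsr (ENSMUSG00000031584, chr8:33652523-33698163) measured 443, 302 and 291 CPM in water + PBS and 187, 166 and 213 CPM in ZnSO4 + PBS. It measured 305, 323 and 291 CPM in water + Dex and 195, 231 and 204 CPM in ZnSO4 + Dex. All 6 ZnSO4 mice lay below all 6 water mice. Gsr fell with ZnSO4 in PBS mice (LFC -0.87, SE 0.15, 0.547-fold, adjusted p = 0.0099), with an adjusted p of 0.056 when only the 2 groups entered the fit. Under Dex its LFC was -0.54 (adjusted p = 0.071), and DESeq2 called it (adjusted p = 0.011). Slc7a11, the cystine importer, ranged from 1.28 to 19.2 CPM, and its highest value was in water + PBS replicate 2. That library also had the highest summed B cell markers (464 CPM, range 10 to 464 over the 12 libraries) and macrophage markers (528 CPM, range 210 to 528), and their part in the level of Slc7a11 was not tested. The LFC of Slc7a11 lay between -1.25 and -1.01 in the 4 comparisons with SE of 0.76 to 0.84, and none was called.

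The pentose phosphate pathway supplies the NADPH that glutathione reductase and thioredoxin reductase use. Tkt, transketolase of its non-oxidative branch (ENSMUSG00000021957, chr14:30548359-30574720), measured 501, 534 and 503 CPM in water + PBS and 592, 514 and 607 CPM in ZnSO4 + PBS. It measured 754, 747 and 771 CPM in water + Dex and 777, 777 and 841 CPM in ZnSO4 + Dex, so every Dex mouse was above every PBS mouse. Tkt rose with Dex in water mice (LFC 0.56, SE 0.09, 1.48-fold, adjusted p = 0.0015) and in ZnSO4 mice (LFC 0.48, SE 0.09, 1.4-fold, adjusted p = 0.0029). The second call was lost with only the 2 groups in the fit (adjusted p = 0.055). With ZnSO4 its adjusted p was 0.35 in PBS mice and 0.68 under Dex. G6pdx and Pgd, the oxidative enzymes that make NADPH, and Taldo1, transaldolase, were called in no comparison. G6pdx had the lowest interaction p of the members (LFC -0.34, SE 0.14, unadjusted p = 0.035), which became 0.95 after adjustment. Its LFC with ZnSO4 was -0.03 in PBS mice and -0.38 under Dex (adjusted p = 0.063), where DESeq2 called it (adjusted p = 0.018).

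Of the 5 thioredoxin and peroxiredoxin genes Prdx6 was the only one called. It encodes a peroxiredoxin that reduces peroxides, also those of phospholipids, with glutathione as its reductant. Prdx6 (ENSMUSG00000026701, chr1:161240112-161251219) measured 212, 173 and 171 CPM in water + PBS and 787, 838 and 835 CPM in water + Dex. In ZnSO4 + PBS it measured 111, 121 and 141 CPM and in ZnSO4 + Dex 449, 363 and 469 CPM. The 4 groups were apart from each other, lowest in ZnSO4 + PBS and highest in water + Dex. Dex raised Prdx6 4.42-fold in water mice (LFC 2.14, SE 0.13, adjusted p = 2.1e-06) and 3.44-fold in ZnSO4 mice (LFC 1.78, SE 0.13, adjusted p = 6.2e-06). ZnSO4 lowered it to 0.521-fold under Dex (LFC -0.94, SE 0.12, adjusted p = 0.0021) and to 0.67-fold in PBS mice (LFC -0.58, SE 0.12, adjusted p = 0.025). The last call was the least stable of the 4. It was lost without water + PBS replicate 1 (adjusted p = 0.12), ZnSO4 + PBS replicate 1 (0.1) or replicate 2 (0.068), or water + Dex replicate 3 (0.053), and with only the 2 groups in the fit (0.058). The ZnSO4 effects with and without Dex were not shown to differ (interaction LFC -0.36, SE 0.18, adjusted p = 0.95).

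The other members of this role were called in no comparison. Txn1, Txnrd1 (thioredoxin reductase), Prdx1 and Srxn1 (sulfiredoxin, which repairs overoxidised peroxiredoxins) had LFC between -0.25 and -0.07 with ZnSO4 in both settings. With Dex, Srxn1 had an LFC of 0.48 in water mice (adjusted p = 0.27) and 0.5 in ZnSO4 mice (adjusted p = 0.21). Srxn1 measured 515, 246 and 588 CPM in ZnSO4 + Dex, and the low mouse, replicate 2, was the library with the lowest summed enterocyte markers (4174 CPM against 6373 to 7988 CPM in the other 11). Without that library Dex raised Srxn1 in ZnSO4 mice (LFC 0.8, adjusted p = 0.00074). Srxn1 was then also called with Dex in water mice (adjusted p = 0.0096), at an unchanged LFC of 0.48. The library is in neither group of that comparison, and enters it only through the scaling and spread that the 4 groups share in the fit. The part of the marker level in the low Srxn1 value of replicate 2 was not tested.

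**Figure D3:**
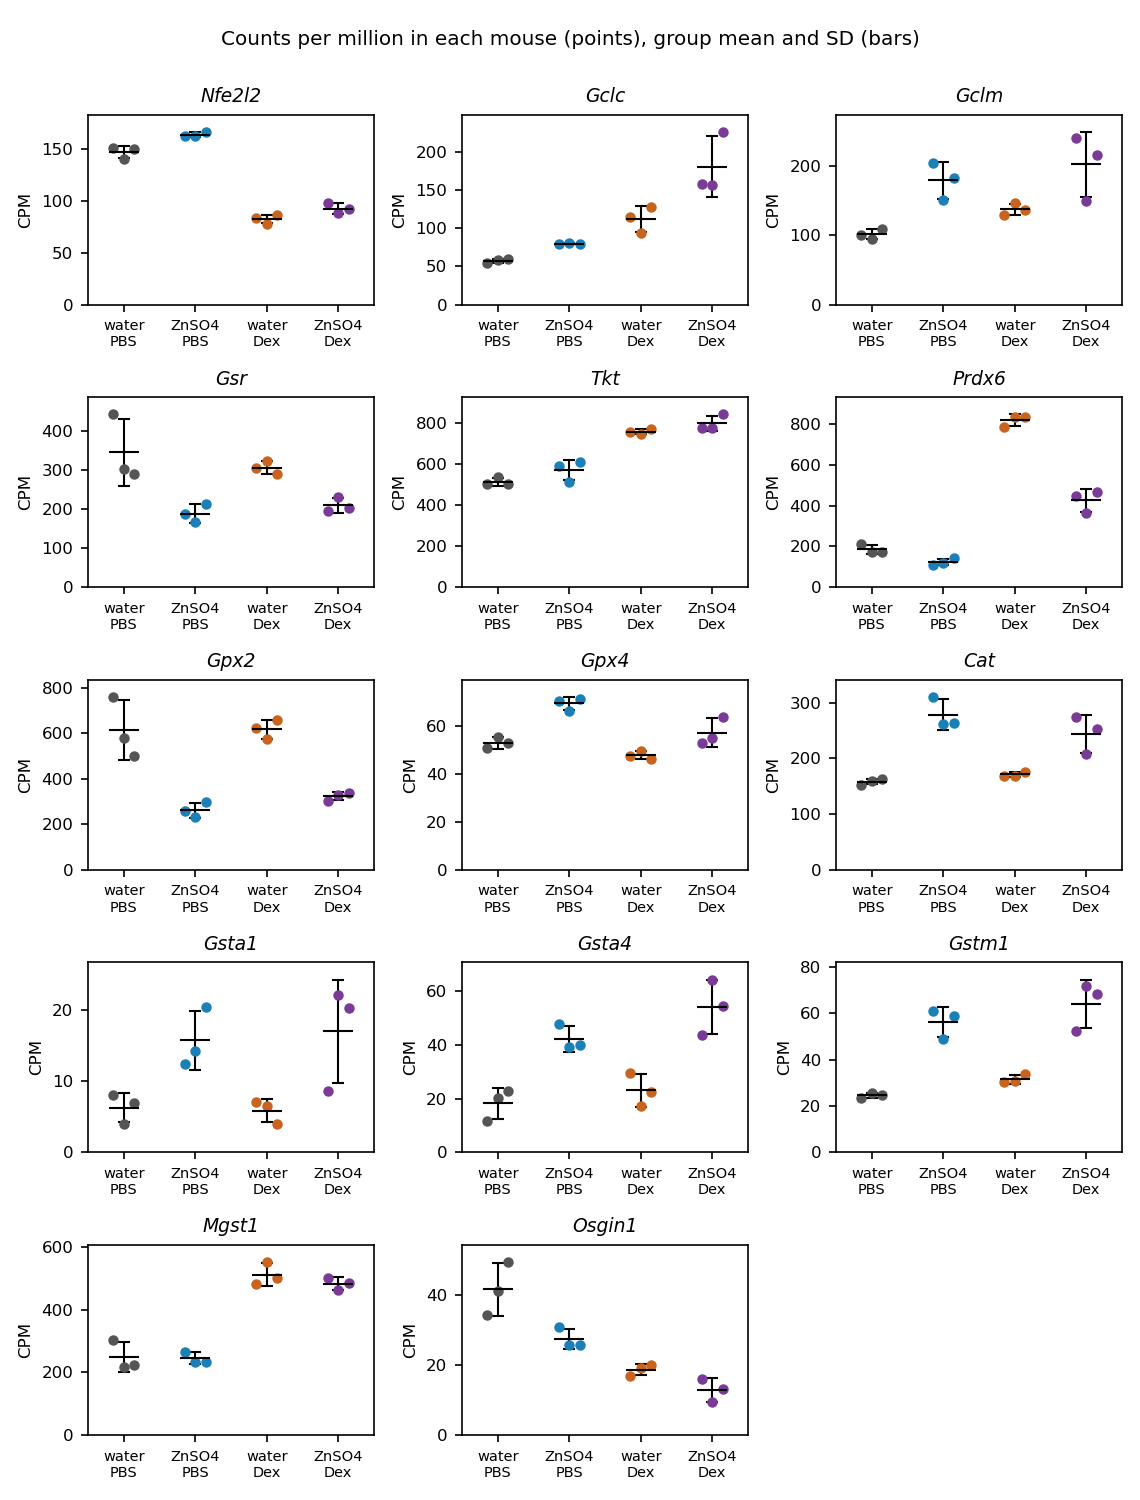
CPM (y axis from 0) of the 14 genes called in at least 1 comparison, in each mouse (points) of the 4 groups (x axis), with the group mean and SD (bars, n = 3). In Prdx6 the water + Dex mice lie between 787 and 838 CPM and the ZnSO4 + Dex mice between 363 and 469 CPM, and in Gpx2 all 6 ZnSO4 mice lie below all 6 water mice.

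Of the 3 listed glutathione peroxidases, Gpx2 fell and Gpx4 rose with ZnSO4 in PBS mice. Gpx2 reduces hydrogen peroxide and is found in the gut epithelium. Gpx2 (ENSMUSG00000042808, chr12:76792333-76795554) measured 759, 581 and 501 CPM in water + PBS and 258, 231 and 296 CPM in ZnSO4 + PBS. It measured 622, 574 and 656 CPM in water + Dex and 303, 330 and 338 CPM in ZnSO4 + Dex, so the ZnSO4 and water mice did not overlap in either setting. Gpx2 fell to 0.427-fold with ZnSO4 in PBS mice (LFC -1.23, SE 0.15, adjusted p = 0.0011) and to 0.524-fold under Dex (LFC -0.93, SE 0.14, adjusted p = 0.0045). Both calls held in each alternative run. With Dex its LFC was 0.01 in water mice (adjusted p = 0.98) and 0.31 in ZnSO4 mice (adjusted p = 0.2). Of its 31-base stretches 9.64% also occur in other genes, mostly in the pseudogene Gpx2-ps1.

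Gpx4 detoxifies phospholipid hydroperoxides in membranes. Gpx4 (ENSMUSG00000075706, chr10:80047166-80056439) measured 50.6, 55.5 and 52.9 CPM in water + PBS and 70.4, 66.4 and 71.4 CPM in ZnSO4 + PBS. Under Dex it measured 47.6, 49.5 and 46.2 CPM in water mice and 52.7, 55 and 63.9 CPM in ZnSO4 mice. The ZnSO4 mice were above the water mice in both settings. Gpx4 rose with ZnSO4 in PBS mice (LFC 0.39, SE 0.08, 1.31-fold, adjusted p = 0.02). That call was lost without water + PBS replicate 1 or 3 or ZnSO4 + PBS replicate 1 or 3 (adjusted p between 0.058 and 0.081). Leaving out both libraries rich in smooth muscle markers, which are named further on, gave 0.056. Under Dex the LFC was 0.26 (adjusted p = 0.099). Gpx4 fell with Dex in ZnSO4 mice (LFC -0.28, SE 0.08, 0.824-fold, adjusted p = 0.038). This call was lost without water + PBS replicate 3, without any 1 of the ZnSO4 + PBS libraries, and without water + Dex replicate 1 or ZnSO4 + Dex replicate 1 or 2 (adjusted p between 0.055 and 0.14). It was also lost with every gene of at least 1 count tested (adjusted p = 0.091), with only the 2 groups in the fit (0.11) and without both muscle-rich libraries (0.2). In other genes, nearly all of it in the pseudogene Gpx4-ps2, the same letters occur for 38.9% of the 31-base stretches of Gpx4, and reads with more than 1 position were not counted, so its level is uncertain. Gpx1, the widely expressed peroxidase, measured 141 to 180 CPM in the 12 libraries and was called in no comparison.

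Superoxide dismutases turn superoxide into hydrogen peroxide, which catalase (Cat) splits into water and oxygen. Cat (ENSMUSG00000027187, chr2:103453849-103485160) measured 153, 159 and 163 CPM in water + PBS and 310, 261 and 264 CPM in ZnSO4 + PBS. It measured 168, 169 and 176 CPM in water + Dex and 274, 207 and 252 CPM in ZnSO4 + Dex. All 6 ZnSO4 mice lay above all 6 water mice. Cat rose with ZnSO4 in PBS mice (LFC 0.82, SE 0.1, 1.76-fold, adjusted p = 0.0015), a call that held in each alternative run. Under Dex it rose by an LFC of 0.52 (SE 0.1, 1.43-fold, adjusted p = 0.016). This call was lost without any 1 of the water + Dex libraries or without ZnSO4 + Dex replicate 1 (adjusted p between 0.058 and 0.073). Sod1, the cytosolic copper and zinc enzyme, had an LFC with ZnSO4 of 0.28 in PBS mice (adjusted p = 0.14) and 0.34 under Dex (adjusted p = 0.083) and was not called. DESeq2 called Sod1 under Dex (adjusted p = 0.039). Sod2, the mitochondrial enzyme, measured 62.3 to 76.8 CPM and Sod3, the secreted enzyme, 16 to 32.1 CPM, and neither was called.

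**Figure D4:**
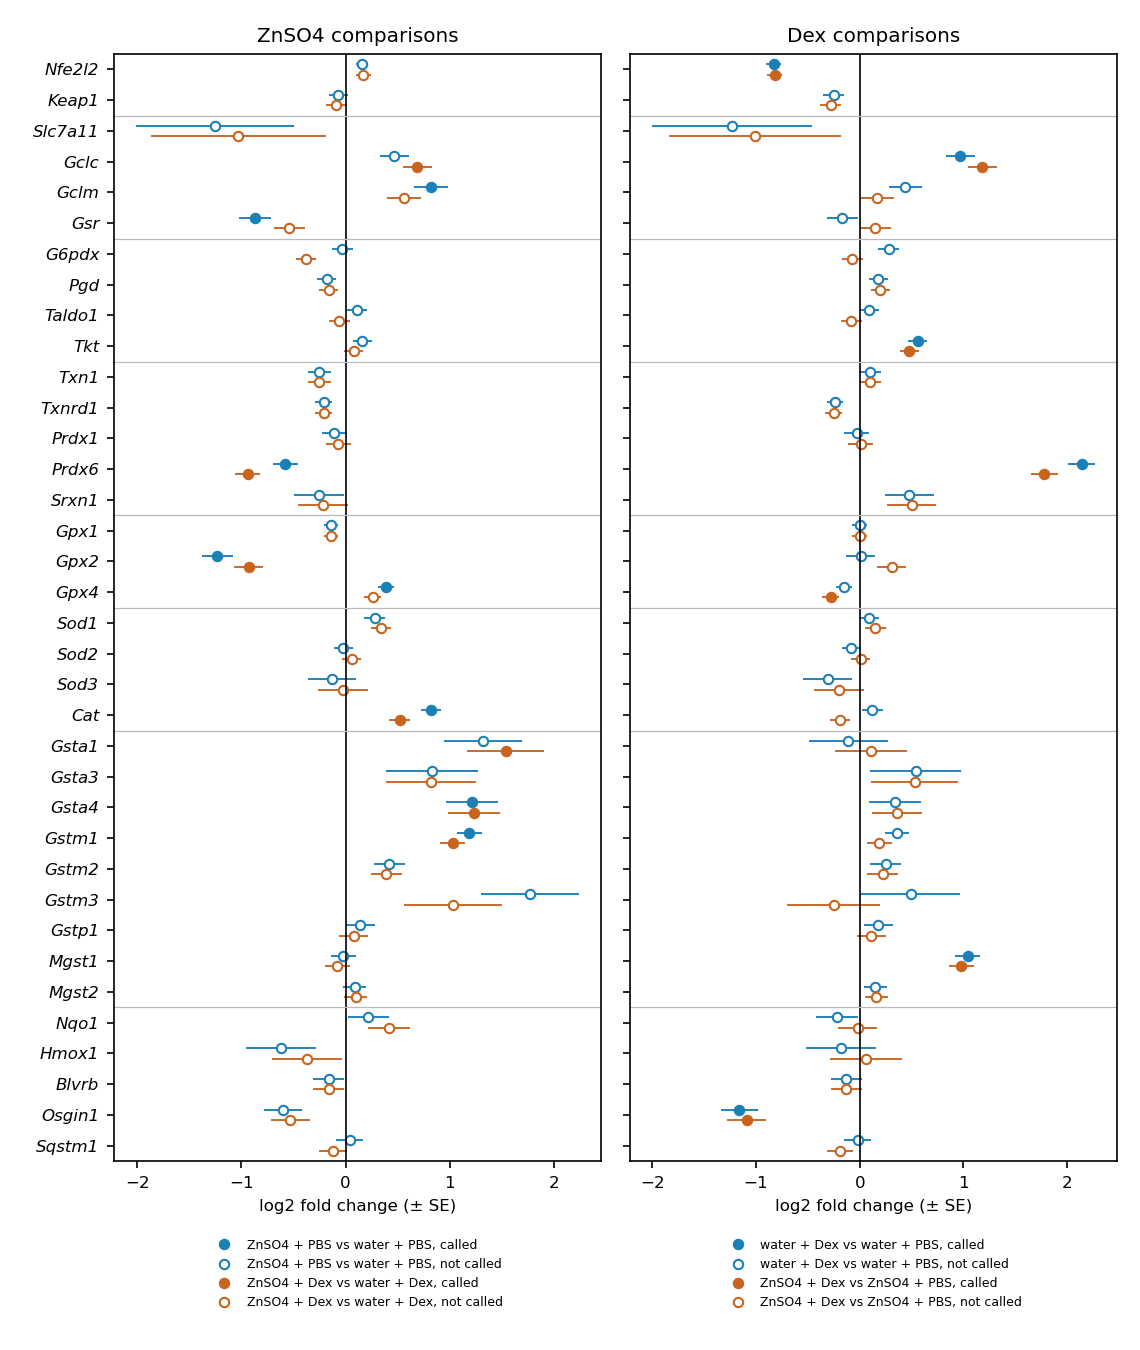
LFC with its SE (x axis) of each of the 36 genes (y axis, ordered by role) in the 2 ZnSO4 comparisons (left) and the 2 Dex comparisons (right). Filled points are genes called at an adjusted p under 0.05. The glutathione S-transferases among these genes lie at or above 0 in the left panel except Mgst1. Prdx6 lies left of 0 with ZnSO4 and furthest right with Dex.

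Glutathione S-transferases join glutathione to electrophiles such as lipid peroxidation products. Of the 9 listed, 8 had an LFC above 0 with ZnSO4 in PBS mice, with a median of 0.83, but only Gsta4 and Gstm1 were called. Under Dex the same count was 8 of 9 with a median of 0.82, and Gsta1, Gsta4 and Gstm1 were called. The exception was Mgst1 in both. Of the 15938 tested genes, 7654 were above 0 in PBS mice and 8147 under Dex. Further transferases stand in a second list, given further on. With ZnSO4 their LFC ran from -0.33 (Gstt2) to 0.76 (Gstm6) in PBS mice. Gstm5, Gstt1 and Gstt2 lay below 0 there and the other tested ones above it. Under Dex the LFC ran from -0.27 (Gstt2) to 0.70 (Gsto1). Gstm4, Gstm5, Gstt1, Gstt2 and Gstt3 then lay below 0 and the other tested ones above it. Among these further transferases Gsto1 alone was called with ZnSO4. Gstm1 (ENSMUSG00000058135, chr3:108012255-108017973) measured 23.3, 25.8 and 24.6 CPM in water + PBS and 61.2, 48.9 and 58.9 CPM in ZnSO4 + PBS. It measured 30.2, 30.6 and 33.8 CPM in water + Dex and 52.4, 71.7 and 68.5 CPM in ZnSO4 + Dex. All ZnSO4 mice were above all water mice. Gstm1 rose 2.29-fold with ZnSO4 in PBS mice (LFC 1.19, SE 0.12, adjusted p = 0.00049) and 2.04-fold under Dex (LFC 1.03, SE 0.12, adjusted p = 0.0013), and both calls held in each alternative run. With Dex in water mice its LFC was 0.36 (adjusted p = 0.1). Of its 31-base stretches 28.8% are found in other genes as well, most in the pseudogene Gstm2-ps1.

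Gsta4, which prefers the lipid peroxidation product 4-hydroxynonenal (ENSMUSG00000032348, chr9:78182774-78209349), measured 11.8, 20.1 and 22.7 CPM in water + PBS and 47.6, 39 and 39.9 CPM in ZnSO4 + PBS. It measured 29.6, 17.1 and 22.4 CPM in water + Dex and 43.7, 64 and 54.4 CPM in ZnSO4 + Dex. Here too the ZnSO4 mice were apart from the water mice. Gsta4 rose 2.32-fold with ZnSO4 in PBS mice (LFC 1.21, SE 0.25, adjusted p = 0.019), a call lost without ZnSO4 + PBS replicate 1 (adjusted p = 0.072) or replicate 3 (0.053). Under Dex it rose 2.35-fold (LFC 1.23, SE 0.25, adjusted p = 0.016), a call lost without water + Dex replicate 2 (0.065) or replicate 3 (0.063) or ZnSO4 + Dex replicate 2 (0.054), or both muscle-rich libraries (0.067).

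Gsta1, an alpha class enzyme (ENSMUSG00000074183, chr9:78230656-78242684) measured 8.04, 3.97 and 6.85 CPM in water + PBS and 12.4, 14.2 and 20.4 CPM in ZnSO4 + PBS. It measured 7.06, 6.45 and 3.99 CPM in water + Dex and 8.66, 22 and 20.2 CPM in ZnSO4 + Dex. Gsta1 rose with ZnSO4 under Dex (LFC 1.54, SE 0.37, 2.9-fold, adjusted p = 0.04) and was not called in PBS mice (LFC 1.32, adjusted p = 0.067). The call under Dex was lost without water + PBS replicate 3, ZnSO4 + PBS replicate 1 or 2, any 1 of the water + Dex libraries, or ZnSO4 + Dex replicate 2 or 3 (adjusted p between 0.051 and 0.14), with only the 2 groups in the fit (0.065), and without both muscle-rich libraries (0.12). Of the 31-base stretches of Gsta1, 92.9% occur in other genes, 80.3% in Gm3776 alone, so these counts cannot be assigned to Gsta1 with certainty. Gstm3 had the highest LFC of all members with ZnSO4 in PBS mice (1.77, SE 0.47) but its ZnSO4 + PBS mice ranged from 11.2 to 33 CPM and it was not called (adjusted p = 0.058). DESeq2 did call Gstm3 (adjusted p = 0.0017), Gsta1 (0.0065), Gclc (0.031) and Osgin1 (0.034) with ZnSO4 in PBS mice. Gsta3 had an LFC of 0.83 (adjusted p = 0.33) and Gstm2 of 0.42 (adjusted p = 0.15). Gstm1, Gstm2 and Gstm3 are neighbours on chromosome 3, and Gclc, Gsta4 and Gsta1 lie near each other on chromosome 9.

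Mgst1, a transferase of the endoplasmic reticulum and outer mitochondrial membrane (ENSMUSG00000008540, chr6:138140316-138156755), was called with Dex and not with ZnSO4. It measured 303, 218 and 223 CPM in water + PBS and 266, 232 and 234 CPM in ZnSO4 + PBS. With Dex it measured 480, 551 and 501 CPM in water mice and 501, 461 and 486 CPM in ZnSO4 mice, above every PBS mouse. Mgst1 rose 2.06-fold with Dex in water mice (LFC 1.04, SE 0.12, adjusted p = 0.00024) and 1.98-fold in ZnSO4 mice (LFC 0.98, SE 0.12, adjusted p = 0.00029), calls that held in each alternative run. With ZnSO4 its LFC was -0.02 in PBS mice and -0.08 under Dex. Mgst2 and Gstp1 were called in no comparison, with LFC between 0.08 and 0.18 in the 4 comparisons.

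Other Nrf2 targets were Nqo1 (a quinone reductase), Hmox1 and Blvrb of heme breakdown, Osgin1 and the autophagy receptor Sqstm1. Only Osgin1 was called. Osgin1 (ENSMUSG00000074063, chr8:119434124-119446256), an oxidative stress induced gene, measured 34.3, 41 and 49.3 CPM in water + PBS and 16.8, 19.1 and 19.9 CPM in water + Dex. It measured 30.7, 25.8 and 25.6 CPM in ZnSO4 + PBS and 16, 9.37 and 13.1 CPM in ZnSO4 + Dex. The 4 groups were apart, highest in water + PBS and lowest in ZnSO4 + Dex. Osgin1 fell to 0.448-fold with Dex in water mice (LFC -1.16, SE 0.18, adjusted p = 0.0019) and to 0.47-fold in ZnSO4 mice (LFC -1.09, SE 0.19, adjusted p = 0.0022). With ZnSO4 its LFC was -0.6 in PBS mice (adjusted p = 0.084) and -0.53 under Dex (adjusted p = 0.14), and neither was called. Nqo1, often used as a readout of Nrf2, measured 19.1 to 38.3 CPM over the 12 libraries, with an LFC with ZnSO4 of 0.22 in PBS mice (adjusted p = 0.59) and 0.42 under Dex (adjusted p = 0.28). Counts of some uncalled members are uncertain because of shared sequence, among them Gstp1 (38.5% of 31-base stretches in other genes), Gstm3 (37.7%), Sod2 (26.7%) and G6pdx (23.6%). Hmox1 ranged from 2.25 to 7.58 CPM, with adjusted p between 0.35 and 0.93 in the 4 comparisons, and Sqstm1 from 171 to 256 CPM.

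The 2 ZnSO4 comparisons share no library, nor do the 2 Dex comparisons. Over the 36 members the LFC with ZnSO4 in PBS mice and under Dex had a Pearson r of 0.951 and the same sign in 33 of 36 (91.7%), beside an r of 0.563 and 69.4% over the 15938 tested genes. Of the 8 members called in PBS mice and the 7 called under Dex, 5 were called in both, 62.5% of the first and 71.4% of the second. The LFC with Dex in water and in ZnSO4 mice had an r of 0.934 over the members, with the same sign in 26 of 36 (72.2%), beside 0.721 and 71.4% over all genes. The members' rank correlation (Spearman rho) was 0.966 for the ZnSO4 pair and 0.781 for the Dex pair, beside 0.538 and 0.616 over all genes. All 6 members called in water mice were among the 7 called in ZnSO4 mice (100% and 85.7%), the other being Gpx4. These correlations are across genes, which are not independent, and describe these libraries. The tested genes beside them were not matched to the members for read count. The ZnSO4 and Dex comparisons in PBS and water mice share the water + PBS libraries, so their values are only set side by side: Prdx6 had -0.58 and 2.14, Gpx2 -1.23 and 0.01, Mgst1 -0.02 and 1.04, Cat 0.82 and 0.12, and Nfe2l2 0.16 and -0.83 as LFC with ZnSO4 and with Dex.

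**Figure D5:**
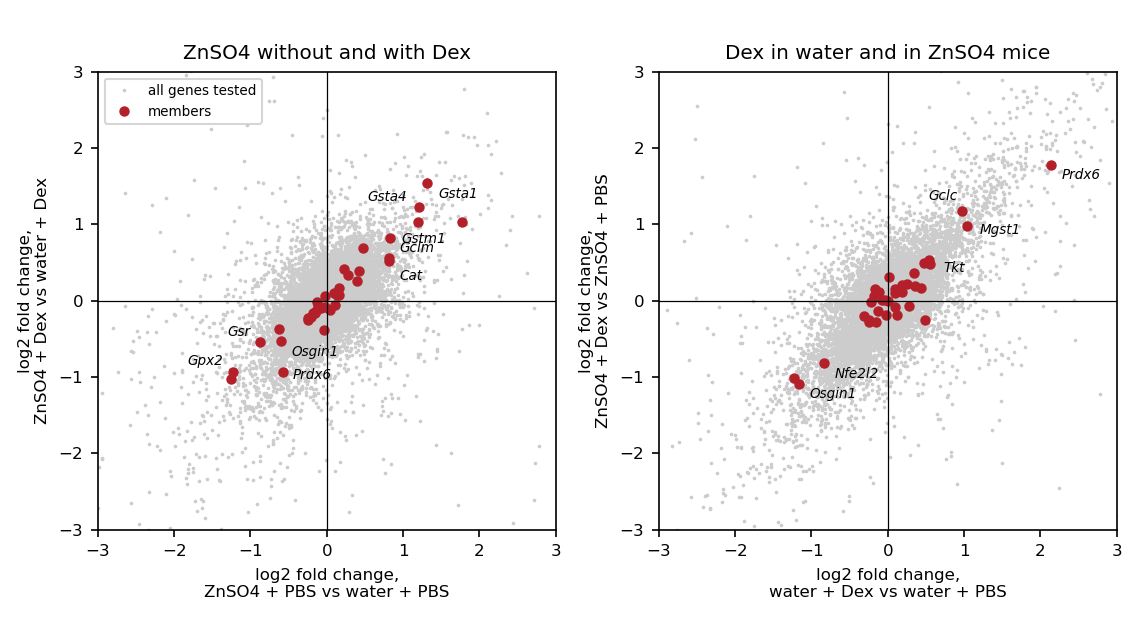
LFC of each gene in pairs of comparisons with no library in common. Left, ZnSO4 in PBS mice (x axis) against ZnSO4 under Dex (y axis); right, Dex in water mice (x axis) against Dex in ZnSO4 mice (y axis). Members are red and all tested genes grey, with axes from -3 to 3 that leave out 68 genes on the left and 133 on the right. The members' Pearson r is 0.951 on the left and 0.934 on the right, and their rank correlation (Spearman rho) is 0.966 and 0.781. On the right 72.2% of members have the same sign in both comparisons, beside 71.4% of all tested genes.

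Whether Dex changed the ZnSO4 effect was tested by the interaction term. No member was called in edgeR's test, beside 0% of all tested genes, and 1 of 36 (G6pdx) had an unadjusted p under 0.05, beside 4.98% of all genes. DESeq2 also called no member, and 4 genes up and 2 down over the whole table. The interaction LFC of the members lay between -0.74 and 0.33 with a median of 0.00.

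A second list of 51 genes of the same pathways, of which 49 were tested, gives the surroundings of the members. With ZnSO4 in PBS mice 4 of the 49 (8.16%) rose and none fell: Gsto1, an omega class transferase (1.66-fold, adjusted p = 0.0045), Cbr1, a carbonyl reductase (1.72-fold, adjusted p = 0.0047), Ugdh, which makes UDP-glucuronate (1.41-fold, adjusted p = 0.0051), and Msrb1, which repairs oxidised methionine (1.27-fold, adjusted p = 0.023). Gsto1, Cbr1 and Ugdh also rose under Dex, together with Txnip (1.47-fold, adjusted p = 0.044). With Dex in water mice 4 rose and none fell. The largest fold was that of Txnip, an inhibitor of thioredoxin (3.61-fold, adjusted p = 1.1e-05), followed by the small Maf protein gene Maff (2.85-fold, adjusted p = 3.7e-05), Gstk1 (1.63-fold, adjusted p = 0.029) and the secreted peroxidase Gpx3 (1.47-fold, adjusted p = 0.016). In ZnSO4 mice Dex raised 5 of the 49 and lowered none, namely Txnip (4.48-fold), Maff (2.68-fold), Gpx3 (1.51-fold), Ggct of glutathione breakdown (1.51-fold) and the Nrf2 relative Nfe2l1 (1.18-fold). The list's median LFC was 0.09, 0.1, -0.02 and 0.03 with ZnSO4, Dex, ZnSO4 under Dex and Dex in ZnSO4 mice. In the same order 8.16%, 8.16%, 8.16% and 10.2% of the list were called in either direction. Over all tested genes the shares were 4.66%, 9.93%, 4.37% and 13.7%. The list's shares with Dex rest on 4 and 5 called genes of 49, and their difference from the shares of all genes was not tested.

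Markers of the cell types in the tissue moved with some groups. The 4 goblet cell markers summed to 8920 to 9331 CPM in water + PBS and 9927 to 11904 CPM in ZnSO4 + PBS, and to 10130 to 10777 CPM in water + Dex and 11544 to 13070 CPM in ZnSO4 + Dex, with 1 of 4 (Muc2) called with ZnSO4 in each setting. Smooth muscle markers summed to 1280 to 1672 CPM in water + PBS, 1504 to 2709 in ZnSO4 + PBS, 1607 to 1709 in water + Dex and 1836 to 2667 in ZnSO4 + Dex, with 0 of 6 called. Enterocyte markers summed to 6718 to 7772 CPM in water + PBS and 6723 to 7988 in ZnSO4 + PBS, with 0 of 5 called. They summed to 7585 to 7891 CPM in water + Dex and 4174 to 7437 CPM in ZnSO4 + Dex, so the ZnSO4 + Dex mice lay below the water + Dex mice. With ZnSO4 under Dex 4 of 5 had an LFC below 0 and 0 of 5 were called, with Krt20 at -0.69 (adjusted p = 0.068) and Vil1 at -0.43 (adjusted p = 0.21). With Dex 1 of 5 (Cdx2) fell in both settings. Of the distal enterocyte markers 1 of 4 (Slc10a2) and of the proximal ones 2 of 5 (Cyp2b10 and Adh6a) rose with Dex in both settings, and Adh6a fell with ZnSO4 in PBS mice. The proximal markers summed to 132 to 197 CPM in the PBS mice and 326 to 683 CPM in the Dex mice. The group mean of Adh6a alone went from 20.4 to 348 CPM with Dex in water mice and from 5.48 to 186 CPM in ZnSO4 mice. Fabp1, Lct and Rbp2 were not called with Dex. Paneth cell markers summed to 10169 to 24210 CPM and erythrocyte markers to 14.5 to 75.7 CPM with no call, 0 of 5 B cell markers were called, and of 5 macrophage markers Cd163 rose with Dex in water mice. No listed marker was at 0 in all libraries. The part of these cell types in the ZnSO4 and Dex results was not tested. Without the 2 libraries highest in smooth muscle markers, ZnSO4 + PBS replicate 3 and ZnSO4 + Dex replicate 2, some calls of members were lost. These were Gpx4 with ZnSO4 in PBS mice (adjusted p = 0.056) and with Dex in ZnSO4 mice (0.2), and Gsta1 (0.12) and Gsta4 (0.067) with ZnSO4 under Dex. Every other call of a member was kept, among them all 6 with Dex in water mice. Neither library is in a group of that comparison, which could change only through the scaling and spread shared in the fit.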

How the data were processed

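RNA was sequenced from the ileum of 12 mice, 1 library per mouse, on a stranded TruSeq preparation with single-end reads. Per the labels and the study's methods, the authors trimmed reads with Trimmomatic, mapped them to mm10 with HISAT2 (version 2.0.4), excluded reads with several positions and deposited raw counts per gene from featureCounts. The annotation release and strand setting are not given in the sources used here. Genes that share sequence with a near copy therefore lose reads.

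Groups were taken from the labels. Counts were filtered with filterByExpr (minimum count 10), scaled by TMM and fitted to the 4 group means with the quasi-likelihood test of edgeR (4.0.16, R 4.3.3). P-values were adjusted by Benjamini-Hochberg over 15938 genes, with a threshold of 0.05. CPM were computed from the TMM library sizes. Depth was 10760132 to 11827487 counts. Exon lengths and positions came from the GENCODE annotation of GRCm38, and promoter sequences from RefSeq. The fit was also run on counts simulated from the means and spread that edgeR estimated here. Such a run cannot show how well the model holds for the real libraries.

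All 36 members are accounted for by role, with full values for those called in at least 1 comparison. The members, the second gene list and the cell type markers were chosen with earlier results of these data known. Alternatives were RLE or upper-quartile scaling in place of TMM, DESeq2 (1.42.0), other count filters and a replicate block. Further ones were fits of 2 groups only, the study's cut-off of 0.8 and leaving out each library. Leaving out both libraries rich in smooth muscle markers was added after seeing the data. Libraries of a group differed by more than counting noise (chi-square per degree of freedom 8.3 to 45.3 in 12 pairs).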

Additional observations from a re-analysis of the deposited data

How the results depend on the processing

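Of 180 results (36 members in 5 tests), 28 were called. Of their 560 refitted values 509 kept the call and 51 lost it. Some of these refits leave out a library of neither group compared, which enters only through the shared scaling and spread. A further 15 results gained a call in at least 1 setting (43 of 300 refits) and 137 were called in none. No direction reversed among the 28 and the 15. Calls that held throughout were those of Gpx2, Cat and Gstm1 with ZnSO4 in PBS mice, all 6 with Dex in water mice, Gpx2, Prdx6 and Gstm1 with ZnSO4 under Dex, and Nfe2l2, Gclc, Prdx6, Mgst1 and Osgin1 with Dex in ZnSO4 mice. With 3 mice a group, calls near the threshold turned on single libraries. The lowest counts of a member in a library were 14 for Slc7a11 and 27 for Hmox1.

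With ZnSO4 in PBS mice, risers numbered 8 by DESeq2 and 2 to 7 with 1 library left out, and fallers 1 with only the 2 groups and 2 to 4 with 1 library left out. The members' median LFC was -0.012 to 0.079 with 1 library left out. With Dex in water mice, leaving out 1 library gave 4 to 6 risers, 2 fallers and a median of 0.025 to 0.119. With ZnSO4 under Dex, risers numbered 8 with upper-quartile factors, 3 with only the 2 groups, 3 past the 0.8 cut-off and 1 to 5 with 1 library left out. Fallers numbered 4 by DESeq2 and 2 to 3 with 1 library left out. The median was 0.039 without both muscle-rich libraries and -0.060 to 0.041 with 1 left out. With Dex in ZnSO4 mice, leaving out 1 library gave 4 to 5 risers, 2 to 4 fallers and a median of -0.000 to 0.128. The interaction called 0 members throughout. The causes were not tested, beyond the fewer samples that some of these fits hold.

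Replicate numbers gave no sign of a pairing of the mice: residuals of same-numbered libraries correlated with a median r of -0.0557 (18 pairs, -0.359 to 0.457) and those of other pairs with 0.0225 (36 pairs). With so wide a range this check cannot exclude a pairing. A replicate block gave 5 up and 3 down with ZnSO4, 4 and 2 with Dex, 4 and 2 with ZnSO4 under Dex, and 4 and 3 with Dex in ZnSO4 mice. Under the block Gsta1 (adjusted p = 0.079) and Gpx4 (0.053) lost their calls under Dex and in ZnSO4 mice, and Txnrd1 gained one in ZnSO4 mice (0.048).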
